A study of Mus musculus with 4 samples.

Results

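The genes described here carry, load and export lipid: the apolipoproteins Apoe, Apoc1, Apoc2 and Apoc4, the sterol exporters Abca1 and Abcg1, the sterol-sensing nuclear receptor gene Nr1h3, the lipase gene Lpl and the phospholipid transfer protein gene Pltp. They were chosen by symbol, and all 9 were found among the 53647 genes of the 4 matrices. The study measured single cells of the lesioned spinal cord of aged C57BL/6J mice with droplet 3′ RNA sequencing, in which each RNA molecule is counted by its unique molecular identifier (UMI). Each library came from a 2 mm segment that included the lesion, taken 28 days after spinal cord injury. The Anti-CD8 group had been given an antibody to CD8, which marks cytotoxic T cells, and the IgG group an immunoglobulin control, with 2 libraries in each. All mice of both groups were aged and injured, so no uninjured or young cord is analysed here, and the number of mice behind a library is not given in the sources used here. Tissue was dissociated and cleared of myelin on beads, which sets the shares of cell types that could be recovered.

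Apolipoprotein E is the main lipid carrier made inside the nervous system, and microglia, macrophages and reactive astrocytes are its known sources. ABCA1 and ABCG1 move cholesterol from a cell onto such particles. The liver X receptor alpha, encoded by Nr1h3, is switched on by oxidised sterols and drives transcription of Abca1, Abcg1, Apoe and Apoc genes, so phagocytes that have taken up myelin are known to raise these genes. Lipoprotein lipase frees fatty acids from lipoproteins, apolipoprotein C-II activates it and apolipoprotein C-I restrains it. The phospholipid transfer protein moves phospholipid between particles and is made at the blood-brain barrier.

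Promoter sequences are shown for 4 members because the set spans a gene cluster and a common regulator. Apoe, Apoc1, Apoc2 and Apoc4 all lie on mouse chromosome 7, Abca1 lies on chromosome 4, Abcg1 on chromosome 17, Lpl on chromosome 8, and Nr1h3 and Pltp on chromosome 2. RefSeq promoters of build GRCm38.p6 were matched for 6 of the 9 members, and Apoc1, Abcg1 and Lpl had no entry in that table. Each run below is the 250 bases before a start site, 5′ to 3′ on the minus strand of the chromosome, and capitals mark motif matches.
Abca1, chr4:53159896-53160145: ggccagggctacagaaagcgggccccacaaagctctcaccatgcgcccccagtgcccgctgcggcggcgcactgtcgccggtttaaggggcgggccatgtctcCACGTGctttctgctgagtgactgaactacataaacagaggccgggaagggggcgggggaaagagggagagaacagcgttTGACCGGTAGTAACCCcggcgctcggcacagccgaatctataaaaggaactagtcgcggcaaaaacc
Apoe, first listed start, chr7:19699189-19699438: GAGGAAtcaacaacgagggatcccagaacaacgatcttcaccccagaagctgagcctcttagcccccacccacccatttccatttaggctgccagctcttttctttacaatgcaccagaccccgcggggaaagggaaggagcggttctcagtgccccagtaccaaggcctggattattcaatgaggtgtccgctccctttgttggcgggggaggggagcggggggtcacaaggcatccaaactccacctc
Apoc4, chr7:19681461-19681710: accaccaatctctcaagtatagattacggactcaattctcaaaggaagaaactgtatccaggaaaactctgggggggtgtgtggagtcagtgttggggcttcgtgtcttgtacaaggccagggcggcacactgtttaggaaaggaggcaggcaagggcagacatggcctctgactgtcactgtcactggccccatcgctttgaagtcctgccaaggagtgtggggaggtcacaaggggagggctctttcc
Pltp, chr2:164857709-164857958: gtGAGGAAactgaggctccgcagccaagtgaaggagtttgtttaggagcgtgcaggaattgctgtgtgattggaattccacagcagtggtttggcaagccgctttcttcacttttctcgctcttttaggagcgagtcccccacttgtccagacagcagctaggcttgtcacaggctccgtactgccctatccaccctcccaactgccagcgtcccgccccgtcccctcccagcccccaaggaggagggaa

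Motifs were searched on both strands. The liver X receptor element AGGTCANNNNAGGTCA was allowed 3 mismatches, at which 18.5% of 32817 mouse promoters of the same length held a match, and the E-box CACGTG and the PU-box GAGGAA were searched exactly. The Abca1 promoter held the element on the minus strand of the gene, 67 to 52 bases before the start, and an E-box, which 6.02% of promoters hold, 147 to 142 bases before it. The first Apoe start and the Pltp start each held a PU-box, as did 23.3% of all promoters, and the 250 bases before Apoc4 held none of the 3 motifs. GC content was 61.6% for Abca1, 57.2% for Apoe, 54% for Apoc4 and 57.6% for Pltp. These matches describe letters in a window and are no measure of binding.

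The 4 libraries held 152457679 and 170539226 UMIs in the Anti-CD8 group, and 153016369 and 152625351 UMIs in the IgG group. After filters and doublet removal, 7481 and 7816 Anti-CD8 cells and 6108 and 6290 IgG cells remained, in 37 clusters made without the 9 genes. Named from marker lists, the classes were microglia-like cells, Spp1-high myeloid-like cells (which carry Spp1 and Gpnmb, known from lipid-laden phagocytes), macrophage-like cells, endothelial-like, mural-like, ependymal-like, T-like and smaller classes, written without "like" from here on. Of T cells, 39.8% (148 of 372) and 36.1% (87 of 241) in the Anti-CD8 libraries held a UMI of Cd8a or Cd8b1, against 85.3% (273 of 320) and 73.5% (485 of 660) in the IgG libraries. Median UMIs per cell were 17284 and 18365.5 in Anti-CD8 libraries and 21950.5 and 20469.5 in IgG libraries, so Anti-CD8 cells were shallower. A microglial cluster led by the interferon genes Ifit2 and Ifit3 held 62 and 123 Anti-CD8 cells against 466 and 81 IgG cells, so most of it came from IgG library 1. Pairs of libraries shared 7 to 23 cell barcodes.

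Apoe dominated these transcriptomes. It supplied 5.91% and 5.81% of all UMIs in the Anti-CD8 libraries, against 6.21% and 6.01% in the IgG libraries, and 98.4% to 98.9% of its UMIs lay in myeloid cells. In the Spp1-high cells it reached 92324 and 86377 UMIs per 1000000 UMIs of the class (CPM) with Anti-CD8, against 89520 and 91903 CPM with IgG. Macrophages held 82440 and 81691 CPM with Anti-CD8, against 92868 and 84663 CPM with IgG, and their range overlapped that of the Spp1-high cells. Microglia as a class lay below both, at 56590 and 52850 CPM with Anti-CD8 and 58427 and 58345 CPM with IgG, and no library of theirs reached the lowest macrophage library. Their clusters differed widely. Microglial cluster 3 had 82971 to 92385 CPM, which overlapped macrophages, and microglial cluster 0 had 22490 to 25354 CPM. Microglia held 41.8% to 46% of the Apoe UMIs of a library and Spp1-high cells 44.5% to 49.1%, with 3298 and 3709 Anti-CD8 and 2937 and 2661 IgG microglia set beside 1656 and 1605 Anti-CD8 and 1453 and 1290 IgG Spp1-high cells.

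Apoc1 and Apoc4, small apolipoproteins of the same chromosome 7 cluster as Apoe, were higher in the Spp1-high cells than in microglia. Apoc1 had 149 and 161 CPM in Anti-CD8 Spp1-high cells and 203 and 260 CPM in IgG ones, and 75.5 and 70.9 CPM in Anti-CD8 microglia and 94.5 and 108 CPM in IgG microglia. Apoc4 had 290 and 284 CPM with Anti-CD8 and 307 and 320 CPM with IgG in Spp1-high cells, with no overlap with microglia, where it had 75.8 and 80.3 CPM with Anti-CD8 and 85.8 and 108 CPM with IgG. Macrophages, which matched the Spp1-high cells in Apoe, had Apoc1 at only 26.5 to 41.2 CPM. Spp1-high cells held 62.8% to 69.5% of the Apoc4 UMIs of a library. Apoc2, the lipase activator, was close to undetected, with 62 and 93 UMIs in the Anti-CD8 libraries and 107 and 89 UMIs in the IgG libraries in all cells. In the mouse annotation used here Apoc2 and Apoc4 overlap a readthrough gene on the same strand, Gm44805, which took 2 and 3 Anti-CD8 and 2 and 5 IgG UMIs, so its counts were small beside those of Apoc4. How reads shared by these genes were counted is not given in the sources used here, and the Apoc2 counts are uncertain for that reason.

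The exporters were spread more evenly over the phagocytes. Abca1 had 846 to 922 CPM in Spp1-high cells, 820 to 924 CPM in microglia and 784 to 837 CPM in macrophages, ranges that overlapped from each class to the next. Abcg1 had 151 to 189 CPM in Spp1-high cells, 103 to 164 CPM in macrophages and 108 to 144 CPM in microglia, which also overlapped. Outside the myeloid cells Abca1 stood at 205 to 287 CPM in ependymal cells, the ciliated lining of the central canal, and at 58.1 to 93.1 CPM in endothelial cells, both above the 12.4 to 22.7 CPM of T cells. Abcg1 in T cells, 46 to 58.9 CPM, was above its 12.3 to 19.3 CPM in endothelial cells.

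Nr1h3, the receptor gene, was ordered differently from the genes it is known to drive. Among the named classes, mural cells, the contractile cells around vessels, held 57.5 and 61.8 CPM with Anti-CD8 and 68.7 and 51.4 CPM with IgG. Cluster 16, with 282 cells led by Rgs5, Vtn, Atp13a5 and Abcc9, scored highest on mural markers. It scored on endothelial markers too, stayed unnamed, and is not in the mural values. Fibroblasts followed at 21.5 and 28.9 CPM with Anti-CD8 and 15.2 and 50.9 CPM with IgG, in only 16 and 14 Anti-CD8 and 5 and 11 IgG cells. Endothelial cells came next at 7.61 to 9.68 CPM and macrophages at 7.22 to 9.56 CPM, below each fibroblast library and overlapping each other. Spp1-high cells had 3.19 to 3.92 CPM and microglia 2.46 to 3.04 CPM, so the order of classes was not that of Abca1. A library held 616 to 645 Nr1h3 UMIs in all, and 36 to 50 of them in mural cells, which limits its precision. Nr1h3 overlaps the transcript Gm13783 on the same strand.

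Lpl and Pltp, which both act on particles outside the cell, had opposite sources. Lpl UMIs were myeloid to 98.9% to 99.5%, with 442 and 471 CPM in Anti-CD8 microglia and 613 and 566 CPM in IgG microglia. In Spp1-high cells Lpl had 541 and 481 CPM with Anti-CD8 and 646 and 522 CPM with IgG, overlapping microglia, while macrophages lay below both at 74.1 to 131 CPM. Pltp was an endothelial gene here, with 62.4% to 69.3% of its UMIs in endothelial cells and 8.4% to 12.4% in ependymal cells. UMIs of unnamed clusters, cluster 16 among them, are in neither share. Their part is not given here, so the shares do not make ependymal cells the next largest source. It had 2861 and 2894 CPM in Anti-CD8 endothelial cells and 2102 and 2801 CPM in IgG endothelial cells, then 598 to 678 CPM in ependymal cells and 12.3 to 15.7 CPM in microglia, with no overlap among these 3 classes. Pltp overlaps Ctsa on the opposite strand.

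**Figure D1:**
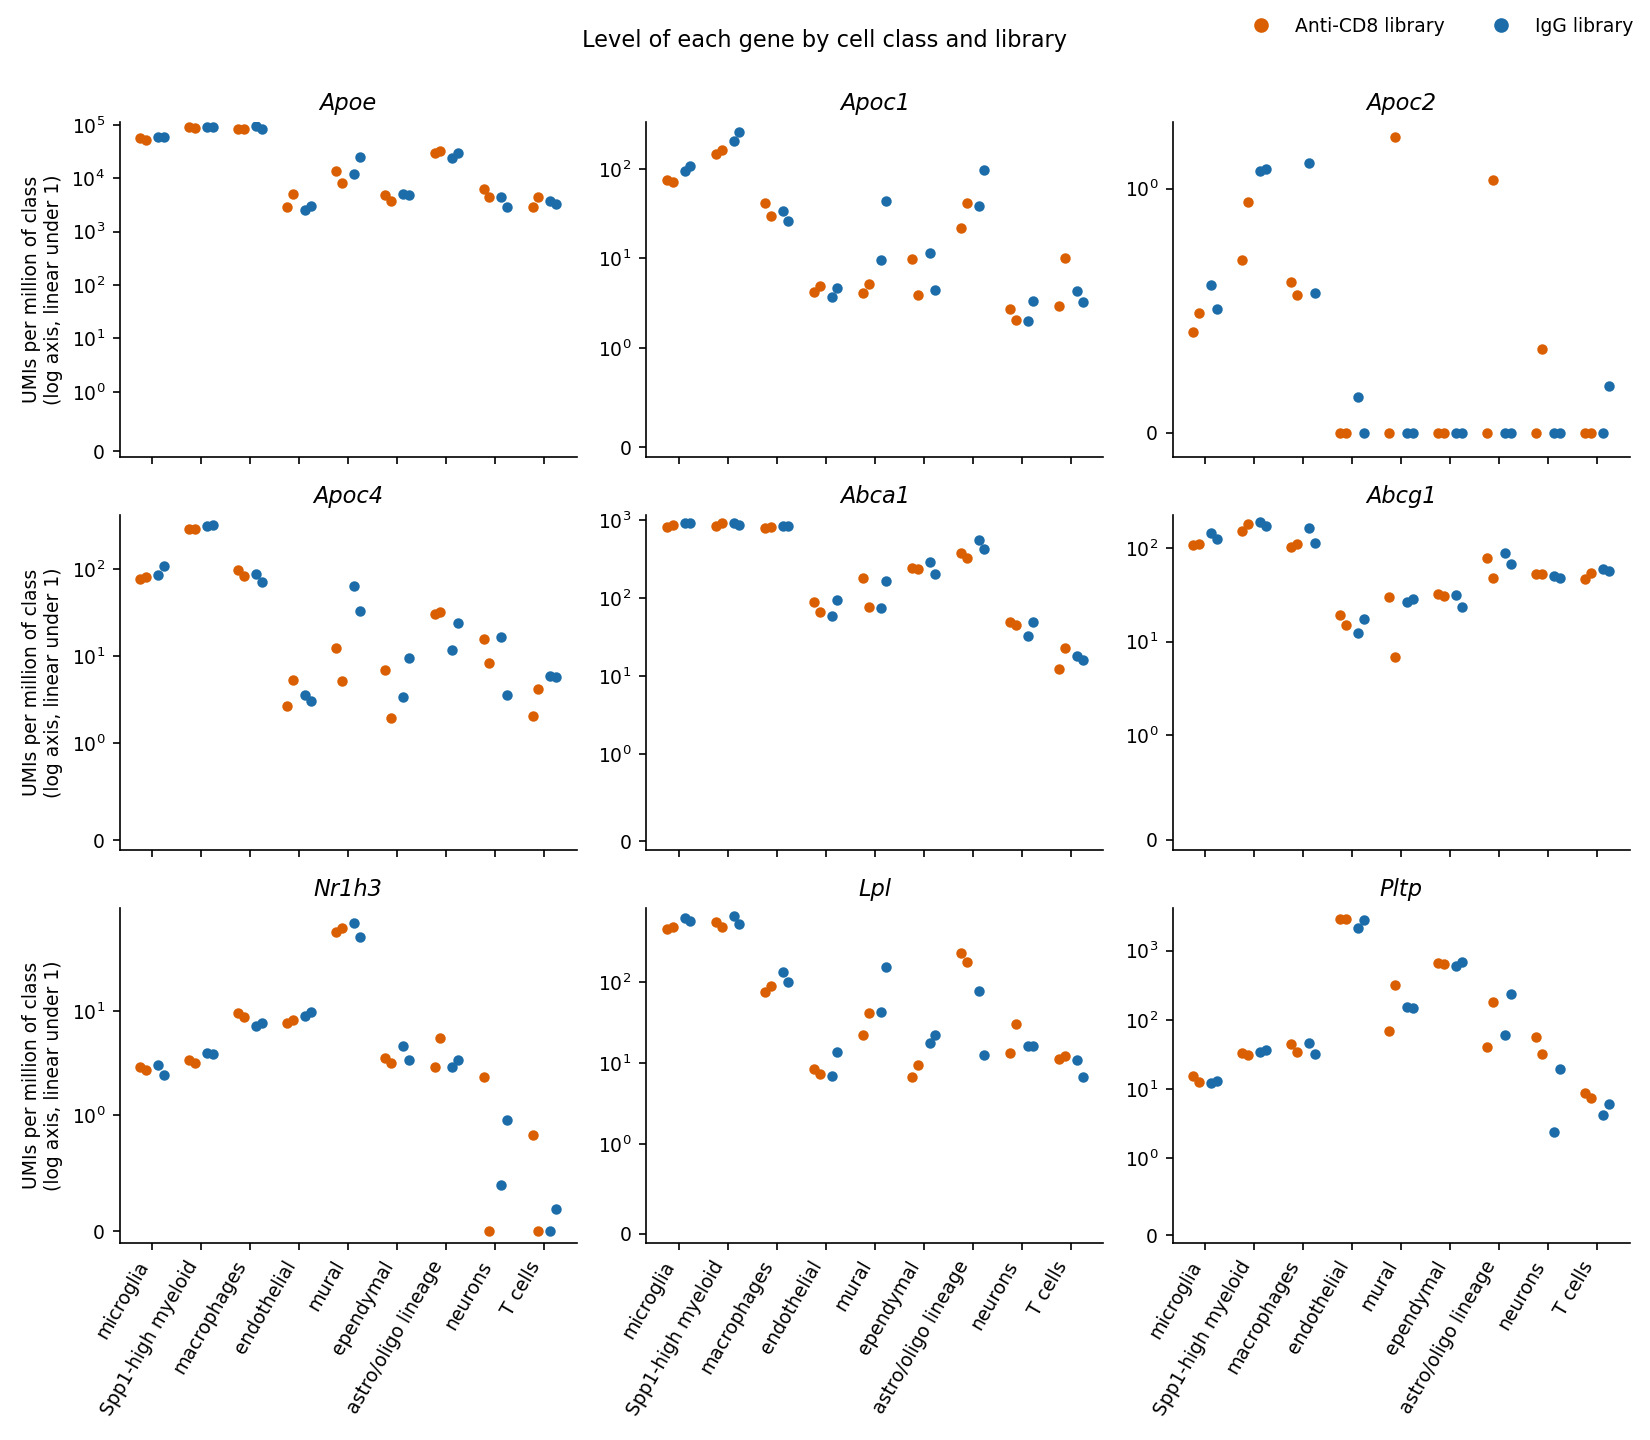
Level of each member by class, in CPM of the class on a log axis that is linear under 1, with 1 point per library (orange Anti-CD8, blue IgG). Apoe, Apoc1, Apoc4, Abca1 and Lpl are high in the myeloid classes on the left, Nr1h3 peaks in mural cells at 51.4 to 68.7 CPM, and Pltp peaks in endothelial cells at 2102 to 2894 CPM.

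T cells, which are not a known source of Apoe but can take up free RNA in droplets, held 2944 and 4536 CPM of Apoe with Anti-CD8 and 3765 and 3262 CPM with IgG. Endothelial cells overlapped them at 2551 to 5025 CPM, as did ependymal cells and neurons. Mural cells, at 8000 to 24431 CPM, and astrocyte and oligodendrocyte-lineage cells, at 23935 to 32948 CPM, lay above every T cell library, and fibroblasts spread from 3558 to 26634 CPM. At a depth of 2000 UMIs per cell, 98.6% to 99.7% of T cells held an Apoe UMI, against 97.9% to 98.9% of endothelial cells. Complement C1q, made by myeloid cells, was used as a yardstick, as UMIs of a member per UMI of C1qa, C1qb and C1qc, relative to the same ratio in T cells of the same library. For Apoe this ratio was 1.24 and 1.16 with Anti-CD8 and 1.64 and 0.805 with IgG in endothelial cells, and 0.901 and 0.696 with Anti-CD8 and 1.19 and 0.898 with IgG in astrocyte and oligodendrocyte-lineage cells. The ratio of that glial class lay on both sides of the T cell ratio, and over its 2 clusters it ranged from 0.797 to 1.68 in cluster 20 and from 0.503 to 1.05 in cluster 29. Apoe of these cells cannot be told apart from free RNA by this ratio. The cells of that class were few, 88 and 185 with Anti-CD8 and 24 and 66 with IgG, and shallow, with median UMIs of 2529 and 1707 with Anti-CD8 and 7765 and 2180.5 with IgG. The mural Apoe ratio was 0.679 and 0.602 with Anti-CD8 and 0.697 and 0.965 with IgG, below that of T cells in each library. A single mural cell held 33.5% and 28.9% of the mural Apoe UMIs with Anti-CD8 and 23.2% and 53.1% with IgG, so the mural level leaned on few cells.

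Pltp and Abca1 stood further from the T cell ratio in endothelial and ependymal cells. The Pltp ratio to T cells was 417 and 411 with Anti-CD8 and 1182 and 396 with IgG in endothelial cells, and 56.9 and 93.2 with Anti-CD8 and 213 and 51.1 with IgG in ependymal cells. At 2000 UMIs per cell, 99.3% and 98.9% of Anti-CD8 and 96.1% and 97.5% of IgG endothelial cells held a Pltp UMI, against 0.31% to 1.67% of T cells. The Abca1 ratio was 3.1 to 9.13 in endothelial cells and 5.97 to 23.8 in ependymal cells. At the same depth, 37.1% and 37% of Anti-CD8 and 35.4% and 25.2% of IgG ependymal cells held an Abca1 UMI, against 1.63% to 5.42% of T cells. Unthinned median depths were 14258 and 11026 UMIs with Anti-CD8 and 16750 and 14222 with IgG in endothelial cells, and 6214.5 and 7184 with Anti-CD8 and 7401 and 7244 with IgG in T cells.

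**Figure D2:**
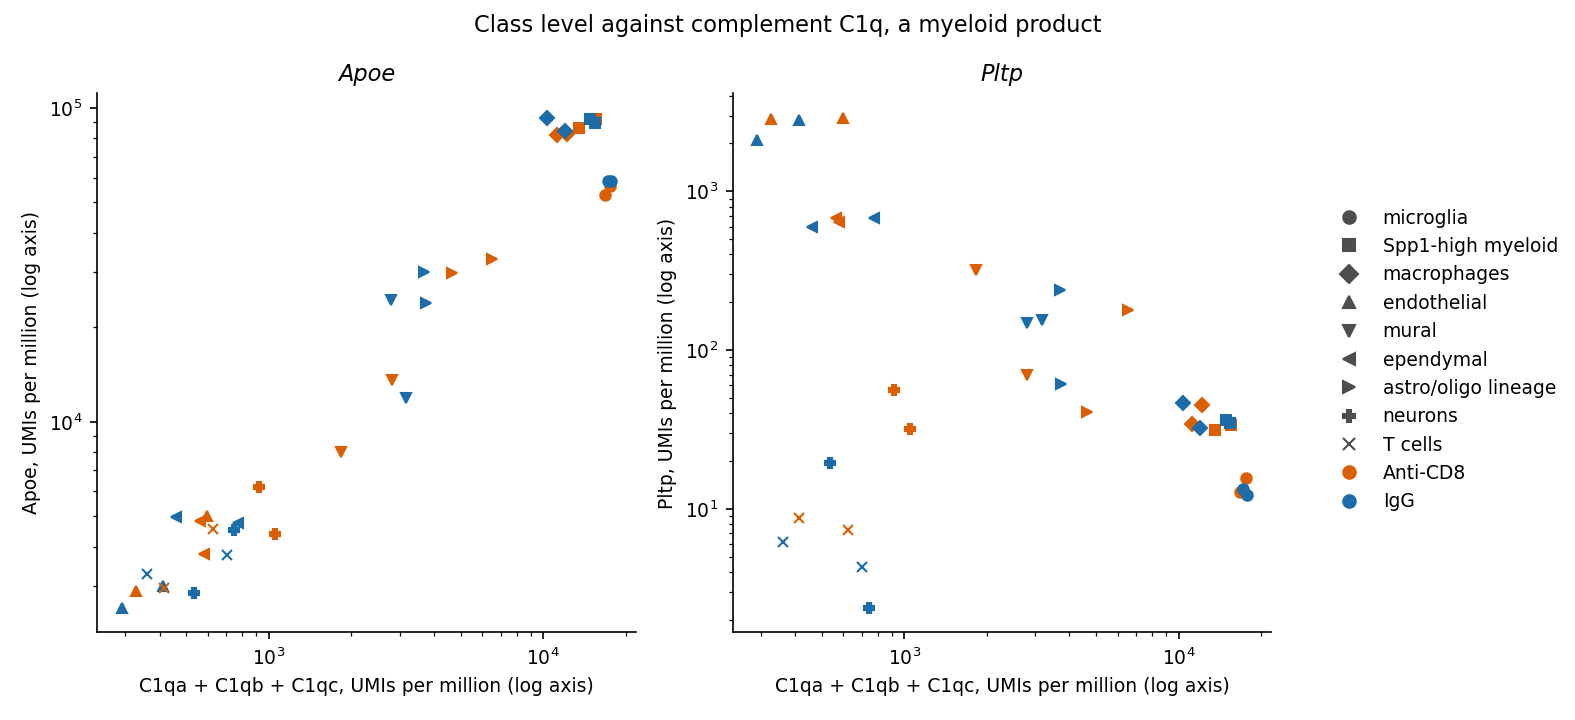
Apoe (left) and Pltp (right) against the sum of C1qa, C1qb and C1qc, all in CPM of the class on log axes, with 1 point per class and library (orange Anti-CD8, blue IgG). Mural cells hold more Apoe and more C1q than T cells in each library, whereas Pltp is above 2000 CPM in endothelial cells that hold 291 to 596 CPM of C1q.

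Within the myeloid cells each gene had its own order over the 14 clusters. Apoe was lowest in cluster 0, at 22490.3 to 25354 CPM. That microglial cluster was led by Crybb1, Slc2a5, the chemokine genes Ccl4 and Ccl3, Csmd3 and Siglech. Microglial cluster 12, led by Crybb1, Cxcl13, Gm10790, Slc2a5, P2ry12 and P2ry13, had Apoe at 54887.5 to 57613 CPM. Apoe was highest in cluster 2, a Spp1-high cluster led by Gpx3 and Ms4a7, at 97192 to 103858 CPM. Apoc1 was also lowest in cluster 0, at 9.05 to 17.9 CPM, and reached 146 to 294 CPM in cluster 2. Apoc4 was highest in cluster 5, led by Mmp12, Fabp4 and Gpnmb, at 340 to 378 CPM, overlapping the 313 to 355 CPM of cluster 2, and stood at 5.31 to 10.7 CPM in cluster 0. Abca1 peaked elsewhere, at 1098 to 1143 CPM in cluster 3 (Abtb2, Zdhhc14) and 1048 to 1180 CPM in cluster 4 (Clec4e, Postn, Spp1). Abcg1 had its highest level in cluster 24, a small Spp1-high cluster led by Anxa1, Acp5 and Npy, at 251 to 308 CPM.

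Lpl followed another order from Apoe. Its highest level was in cluster 7, microglia led by the cytokine genes Il23a, Il12b and Cxcl2, at 1322 to 1620 CPM, and no other cluster reached that range. Cluster 2, the highest in Apoe, had Lpl at 152 to 204 CPM, a range that overlapped the 122 to 152 CPM of microglial cluster 0. Over the 26 clusters of the whole series with at least 20 cells in every library, the level profiles of Apoe and Lpl had a Pearson r of 0.867, and over the 14 myeloid clusters r was -0.011. Apoe and Apoc4 had r of 0.945 over the 26 clusters and 0.847 over the myeloid ones, and Apoc1 and Apoc4 had 0.91 and 0.856. Abcg1 and Pltp had r of -0.539 over the 26 clusters and 0.73 over the 14, with both at their highest myeloid level in cluster 24. These correlations are descriptions of log2(mean CPM + 1) profiles from clusters that share 4 libraries.

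**Figure D3:**
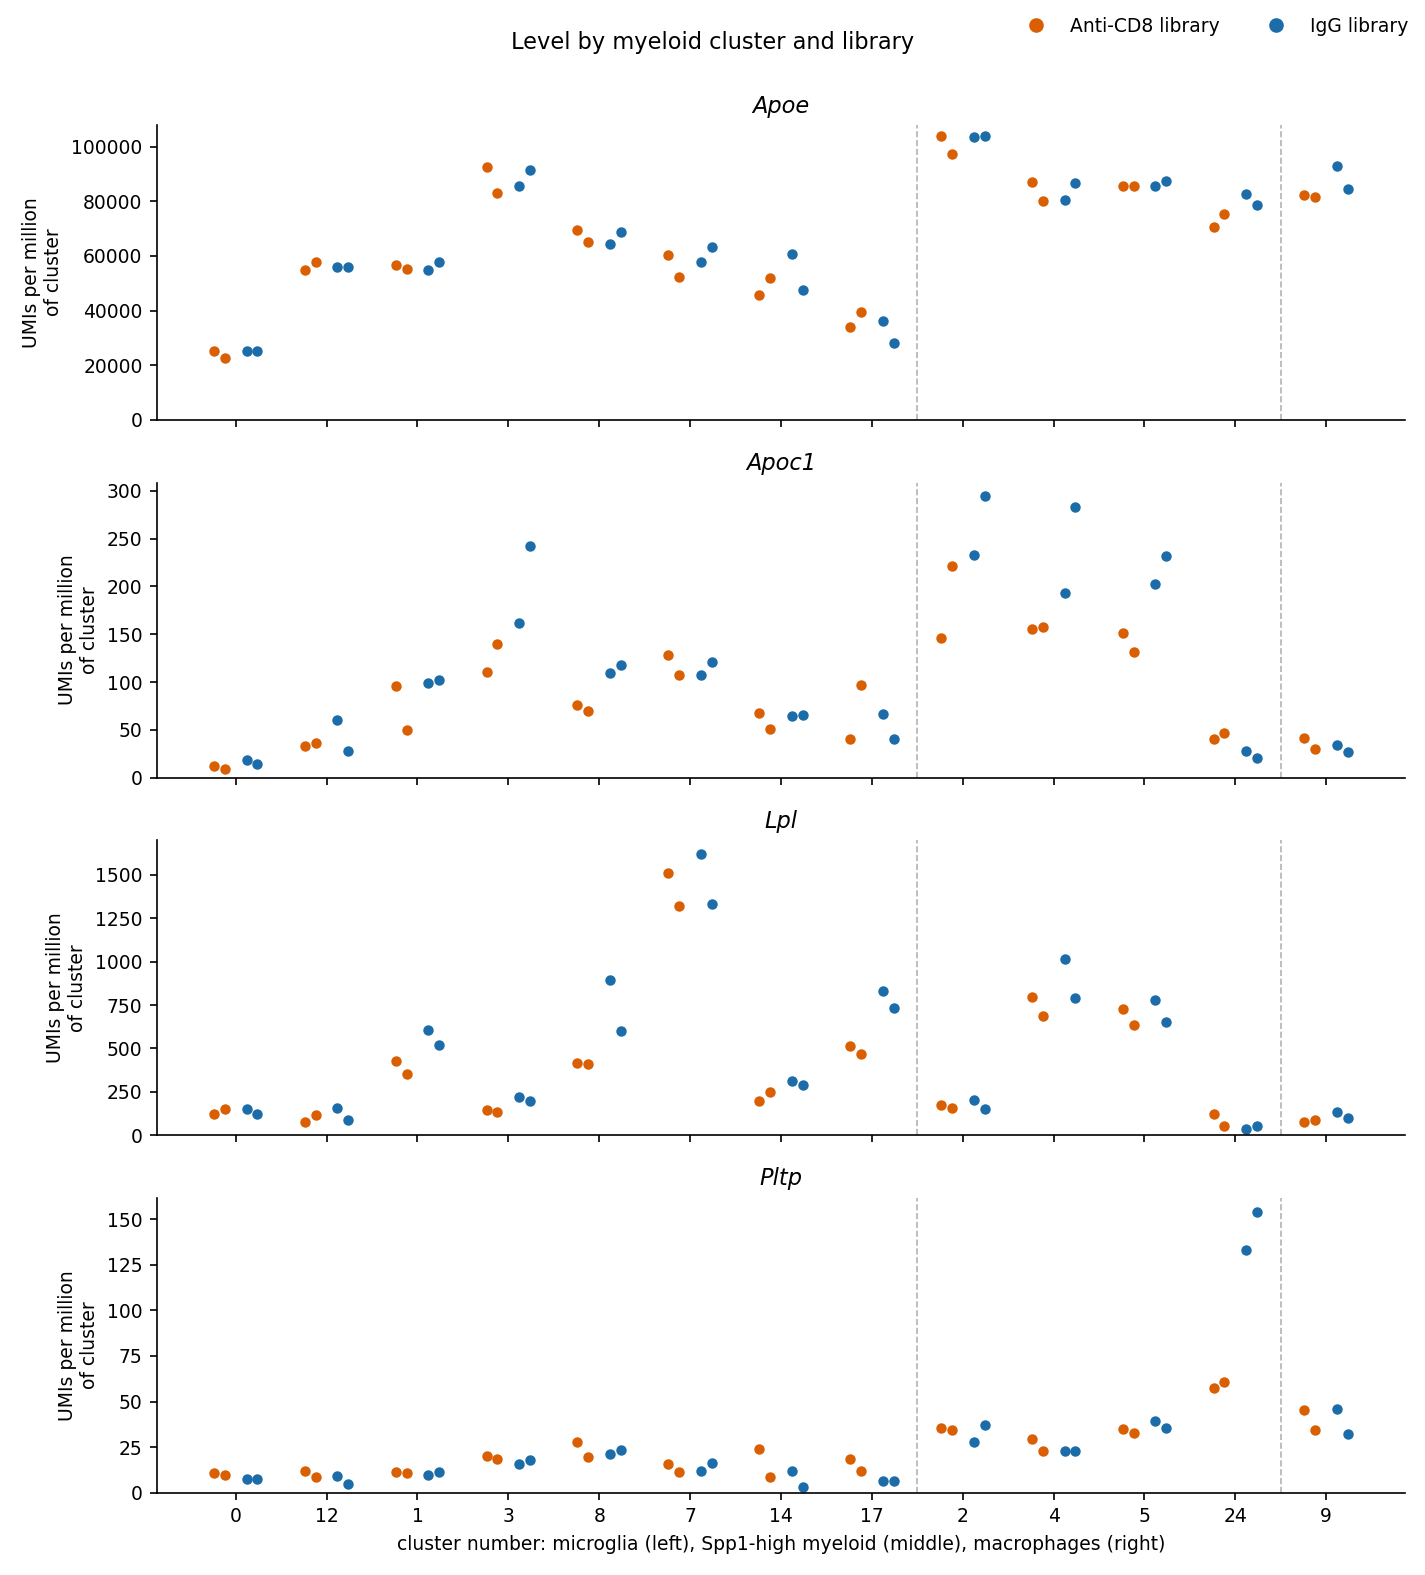
Level of Apoe, Apoc1, Lpl and Pltp by myeloid cluster, in CPM of the cluster, with 1 point per library (orange Anti-CD8, blue IgG) and dashed lines between microglia, Spp1-high cells and macrophages. Apoe is lowest in cluster 0 and highest in cluster 2, Lpl is highest in cluster 7 at 1322 to 1620 CPM, and the 2 IgG points of Pltp in cluster 24 lie far above the 2 Anti-CD8 points.

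Anti-CD8 was set against IgG in each class on summed UMI counts, with edgeR's quasi-likelihood test and Benjamini-Hochberg adjustment over all genes tested. No member was called at adjusted p under 0.05 in any of the 8 classes fitted. Levels in these comparisons are CPM with TMM scaling of the class, and fold changes are Anti-CD8 over IgG. In 5 of them some fit without 1 library did call members, as given with each class. Such a fit leaves 1 group with a single library, which is assumed to vary like the 2 libraries of the other group, so its p-values describe that reduced set and not the comparison of 2 against 2.

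In microglia, 7 of 9 members were lower in both Anti-CD8 libraries than in either IgG library, where 21.5% of the 18050 genes tested did the same. Apoc1 had 73.6 and 69.9 CPM with Anti-CD8, against 96.4 and 111 CPM with IgG, at -0.53 in log2 (SE 0.07) with an adjusted p of 0.22. It ranked 16 by p among all genes. Lpl had 431 and 465 CPM with Anti-CD8 and 625 and 578 CPM with IgG, at -0.42 (SE 0.07, adjusted p 0.26). Abcg1 had 105 and 107 CPM with Anti-CD8 and 147 and 128 CPM with IgG, at -0.37 (SE 0.07, adjusted p 0.35). The groups did not overlap for any of these 3 genes, nor for Apoe, Apoc2, Apoc4 and Abca1, whose log2 fold changes lay between -0.15 and -0.37. Pltp, at 15.3 and 12.7 CPM with Anti-CD8 and 12.5 and 13.6 CPM with IgG, and Nr1h3, at 2.86 and 2.67 CPM with Anti-CD8 and 3.1 and 2.51 CPM with IgG, overlapped. The median log2 fold change was -0.347 over the 9 members and 0.001 over all genes tested.

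The count of calls in microglia differed between tests. The adjusted test called 0% of microglial genes, with 1635 genes at an unadjusted p under 0.05, while DESeq2 called 96 genes, among them Apoc1 (adjusted p 1.67e-05), Lpl (adjusted p 5.31e-05) and Abcg1 (adjusted p 0.00922). With the spread taken from the 2 Anti-CD8 libraries alone, edgeR without IgG library 2 called Apoc1 at -0.43, Lpl at -0.48 and Abcg1 at -0.47. Without IgG library 1 it called Apoc1 as the only member, at -0.63. More genes of all kinds were called without IgG library 2, as the closing results give. Without the interferon-high cluster, which was mostly IgG library 1, 0.0225% of 17794 genes were called and no member, with Apoc1 at -0.56 (adjusted p 0.0698) and Lpl at -0.47 (adjusted p 0.18). The macrophage marker list summed to 4127 and 4141 CPM in Anti-CD8 microglia and 3408 and 3791 CPM in IgG microglia, with 2 of 12 markers apart upwards, 1 apart downwards and 1 at 0 in every library. The neutrophil list summed to 224 and 220 CPM with Anti-CD8 and 406 and 230 CPM with IgG, with 1 of 7 markers apart upwards and 3 downwards. The part of these other cells in the result was not tested. Of all genes tested in microglia, 20.7% were apart upwards and 21.5% downwards.

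The makeup of the class differed between libraries too. Cluster 0, the lowest in Apoe, Apoc1 and Apoc4, made up 30.4% and 28% of Anti-CD8 microglia and 17.5% and 25.8% of IgG microglia. IgG library 2 thus lay close to Anti-CD8 library 2, and IgG library 1 lay furthest off. The interferon-high cluster made up 15.9% of microglia in IgG library 1, against 1.88% to 3.32% in the other libraries. With each library given the same mix of clusters, the microglial log2 difference was -0.438 for Apoc1, against -0.539 with its own mix. It was -0.34 for Lpl, against -0.409, and -0.033 for Apoe, against -0.108. For Apoc2 it was -0.167, against -0.404, for Apoc4 -0.216, against -0.339, and for Abcg1 -0.252, against -0.313. For Abca1 it was -0.103, against -0.124, for Nr1h3 0.066, against 0.025, and for Pltp 0.241, against 0.181. With the same mix the libraries overlapped for Apoe, at 55269 and 51823 CPM with Anti-CD8 and 53849 and 55744 CPM with IgG. Apoc4 overlapped too, at 71.6 and 75.2 CPM with Anti-CD8 and 74.6 and 95.9 CPM with IgG. Apoc1, Apoc2, Abca1, Abcg1 and Lpl stayed apart. These values are means of cluster CPM weighted by cells, not the fitted class values, and carry no error. The part of the cluster mix in the differences was not tested.

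In the Spp1-high cells, 6 of 9 members were lower in both Anti-CD8 libraries, where 19.7% of the 16177 genes were. Apoc1 again had the largest difference of these, with 147 and 158 CPM with Anti-CD8 against 206 and 266 CPM with IgG, at -0.63 (SE 0.11, adjusted p 0.34). Apoc4 had 287 and 278 CPM with Anti-CD8 and 312 and 327 CPM with IgG, at -0.18 (SE 0.05, adjusted p 0.64). Lpl overlapped, at 535 and 470 CPM with Anti-CD8 and 656 and 533 CPM with IgG. Apoe (-0.07) and Abca1 (-0.06) overlapped as well, while Apoc2, Abcg1, Nr1h3 and Pltp were apart at -0.17 to -0.60. The test called 0.00618% of genes, 1 gene, with 1124 at an unadjusted p under 0.05 and 25 called by DESeq2, no member among them in either. Without IgG library 1, Apoc1 was called at -0.80, and without IgG library 2 at -0.43, in fits that leave 1 IgG library. The macrophage list summed to 15166 and 15181 CPM with Anti-CD8 and 11596 and 15081 CPM with IgG in these cells, and its part in the result was not tested.

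In macrophages, 8 members were tested, without Apoc2, and 4 were lower in both Anti-CD8 libraries, where 16% of the 12058 genes were. Lpl had 73 and 87.9 CPM with Anti-CD8 and 135 and 98.3 CPM with IgG, at -0.52 (SE 0.14, adjusted p 0.64). Abcg1 had 101 and 109 CPM with Anti-CD8 and 168 and 112 CPM with IgG, at -0.40 (SE 0.15, adjusted p 0.92), with IgG library 2 close to the Anti-CD8 libraries. Apoe had 81227 and 81670 CPM with Anti-CD8 and 95560 and 84762 CPM with IgG, at -0.15 (SE 0.07, adjusted p 0.99). Abca1 was apart by less, at -0.10, and Apoc4 (0.16) and Pltp overlapped. Nr1h3 was the 1 member higher in both Anti-CD8 libraries, as 17.3% of genes were, at 9.42 and 8.72 CPM with Anti-CD8 and 7.43 and 7.74 CPM with IgG. The test called 0.0166% of genes, 606 were at an unadjusted p under 0.05, and neither it nor DESeq2 called a member. Without IgG library 2, which lay close to the Anti-CD8 libraries, the IgG group is 1 library. The spread then comes from the Anti-CD8 pair alone, and edgeR called Apoe at -0.24, Abcg1 at -0.68 and Lpl at -0.75. Without Anti-CD8 library 2 it called Lpl at -0.66. More genes of all kinds were called in macrophages without 1 library, as the closing results give, so these calls describe the reduced sets only. The Spp1-high marker list summed to 8109 and 7559 CPM in Anti-CD8 macrophages and 10894 and 8406 CPM in IgG macrophages, and its part was not tested.

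Apoc1 in macrophages hung on single cells. It had 40.5 and 30 CPM with Anti-CD8 and 34.7 and 26.5 CPM with IgG, at 0.22. In the Anti-CD8 libraries 1 macrophage held 145 of 267 (54.3%) and 84 of 213 (39.4%) of the Apoc1 UMIs, against 11 of 154 (7.14%) and 9 of 185 (4.86%) in the IgG libraries. Without the cell with the most Apoc1 UMIs in each library, Apoc1 had 18.7 and 18.2 CPM with Anti-CD8 and 32.5 and 25.5 CPM with IgG, at -0.64 (SE 0.16, adjusted p 0.58), so the direction turned. The share of macrophages with an Apoc1 UMI was 19.9% and 17.6% with Anti-CD8 and 30.6% and 27.4% with IgG, and 3% and 3.4% with Anti-CD8 and 5.2% and 4.7% with IgG at 2000 UMIs per cell.

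Apoc1 was unevenly spread over microglia as well, without hanging on 1 cell. The 5% of microglia with the most Apoc1 held 73.3% and 73.2% of its UMIs with Anti-CD8 and 63.7% and 69.1% with IgG. The same share for Apoe was 17% and 17.2% with Anti-CD8 and 15.3% and 16.8% with IgG, and for Lpl 43.7% and 39.5% with Anti-CD8 and 34.4% and 36.3% with IgG. An Apoc1 UMI was found in 28.9% and 29.6% of Anti-CD8 microglia and 40.8% and 39.3% of IgG microglia. At 2000 UMIs per cell, which removes the difference in depth, the shares were 6.9% and 5.7% with Anti-CD8 and 9.4% and 9.3% with IgG, so both Anti-CD8 shares stayed under both IgG shares at equal depth.

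Over all myeloid cells together, the 9 members had log2 fold changes below 0, and 7 were lower in both Anti-CD8 libraries, where 21% of the 19572 genes were, and none higher in both, where 19.8% were. Apoc1 had 101 and 100 CPM with Anti-CD8 and 137 and 161 CPM with IgG, at -0.57 (SE 0.08, adjusted p 0.24). Lpl had 452 and 445 CPM with Anti-CD8 and 625 and 530 CPM with IgG, at -0.36 (adjusted p 0.49). The test called 0% of genes, with 1620 at an unadjusted p under 0.05, and DESeq2 called 91, Apoc1 and Lpl among them, as edgeR did without IgG library 2.

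Vessel cells gave no call. Pltp in endothelial cells had 2860 and 2894 CPM with Anti-CD8 and 2136 and 2796 CPM with IgG, at 0.22 (SE 0.12, adjusted p 0.999). The groups were apart, as they were upwards in 16.4% of the 13966 genes, but IgG library 2 lay close to the Anti-CD8 libraries and IgG library 1 alone was low. Nr1h3 was the 1 endothelial member apart downwards, as 16.4% of genes were, at 7.6 and 8.26 CPM with Anti-CD8 and 9.01 and 9.66 CPM with IgG. Apoe had 2877 and 5027 CPM with Anti-CD8 and 2592 and 2992 CPM with IgG (0.50, overlapping), beside myeloid markers that summed to 550 and 1023 CPM with Anti-CD8 and 484 and 683 CPM with IgG, whose part was not tested. The test called 0% of endothelial genes, with 648 at an unadjusted p under 0.05 and 5 called by DESeq2, no member among them. In mural cells 7 members were tested and 0.012% of 8314 genes called, with 336 at an unadjusted p under 0.05 and 2 called by DESeq2, no member among them. Nr1h3 overlapped there, at 59.6 and 62.8 CPM with Anti-CD8 and 73.3 and 52.8 CPM with IgG. Apoc4 and Lpl were the 2 mural members apart downwards, as 16.2% of genes were. Apoc4 had 12.8 and 5.23 CPM with Anti-CD8 and 67.4 and 33.8 CPM with IgG (-2.42, SE 0.52, adjusted p 0.997), and Lpl 22.7 and 41.9 CPM with Anti-CD8 and 45.4 and 158 CPM with IgG (-1.68, SE 0.58, adjusted p 0.997). In IgG library 1, 1 mural cell held 40 of 46 Apoc4 UMIs (87%), and in IgG library 2, 1 cell held 74 of 108 Lpl UMIs (68.5%). Without the cell with the most Lpl UMIs in each library, mural Lpl was -0.76 (SE 0.39), with 19.2 and 36.8 CPM with Anti-CD8 and 38.4 and 55.2 CPM with IgG. Apoc4 without its top cells no longer passed the filter on low counts. Myeloid markers summed to 4640 and 2908 CPM in Anti-CD8 mural cells and 5279 and 4955 CPM in IgG mural cells, and their part in these differences was not tested.

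In ependymal cells, 8 members were tested and 0.00701% of 14264 genes called, with 333 at an unadjusted p under 0.05 and 9 called by DESeq2, no member among them. Pltp had 686 and 634 CPM with Anti-CD8 and 622 and 662 CPM with IgG, at 0.04, and Abca1 had 250 and 234 CPM with Anti-CD8 and 298 and 201 CPM with IgG, so neither separated the groups. Lpl was apart downwards, as 13.9% of genes were, at 6.83 and 9.43 CPM with Anti-CD8 and 18 and 21.4 CPM with IgG, at -1.29 in log2 (SE 0.25, adjusted p 0.28). It was called without IgG library 1 (-1.41) and without IgG library 2 (-1.17), in fits that leave 1 IgG library. Without the cell with the most Lpl UMIs in each library it was -0.08. Its levels were then 5.83 and 6.62 CPM with Anti-CD8 and 8.1 and 4.89 CPM with IgG. Ependymal cells held 460 to 772 CPM of the myeloid C1q genes, and the part of myeloid RNA in the Lpl difference was not tested. In astrocyte and oligodendrocyte-lineage cells the test called 0% of 9918 genes (406 at an unadjusted p under 0.05, 10 called by DESeq2) and none of 7 members, and Lpl differed most in size, at 233 and 184 CPM with Anti-CD8 and 74.9 and 13.8 CPM with IgG (2.37 in log2, SE 0.72, adjusted p 1). It was apart upwards there, as were 16.9% of genes, in 88 and 185 Anti-CD8 cells and 24 and 66 IgG cells. Without the cell with the most Lpl UMIs in each library it was 3.29 (SE 0.43, adjusted p 0.33). Other marker lists moved with it in this class. The Spp1-high list summed to 8941 and 6476 CPM with Anti-CD8 and 1985 and 5407 CPM with IgG, with 3 of 8 markers apart upwards and 1 downwards. The myeloid list summed to 8637 and 10837 CPM with Anti-CD8 and 6680 and 6983 CPM with IgG, with 5 of 8 markers apart upwards. The astrocyte list was lower with Anti-CD8, at 2301 and 4911 CPM against 5140 and 10716 CPM with IgG, with 5 of 8 markers apart downwards. None of these markers was at 0 in all libraries, and the part of these cells in the Lpl difference was not tested. Of all genes tested in this class, 16.9% were apart upwards and 16.6% downwards.

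**Figure D4:**
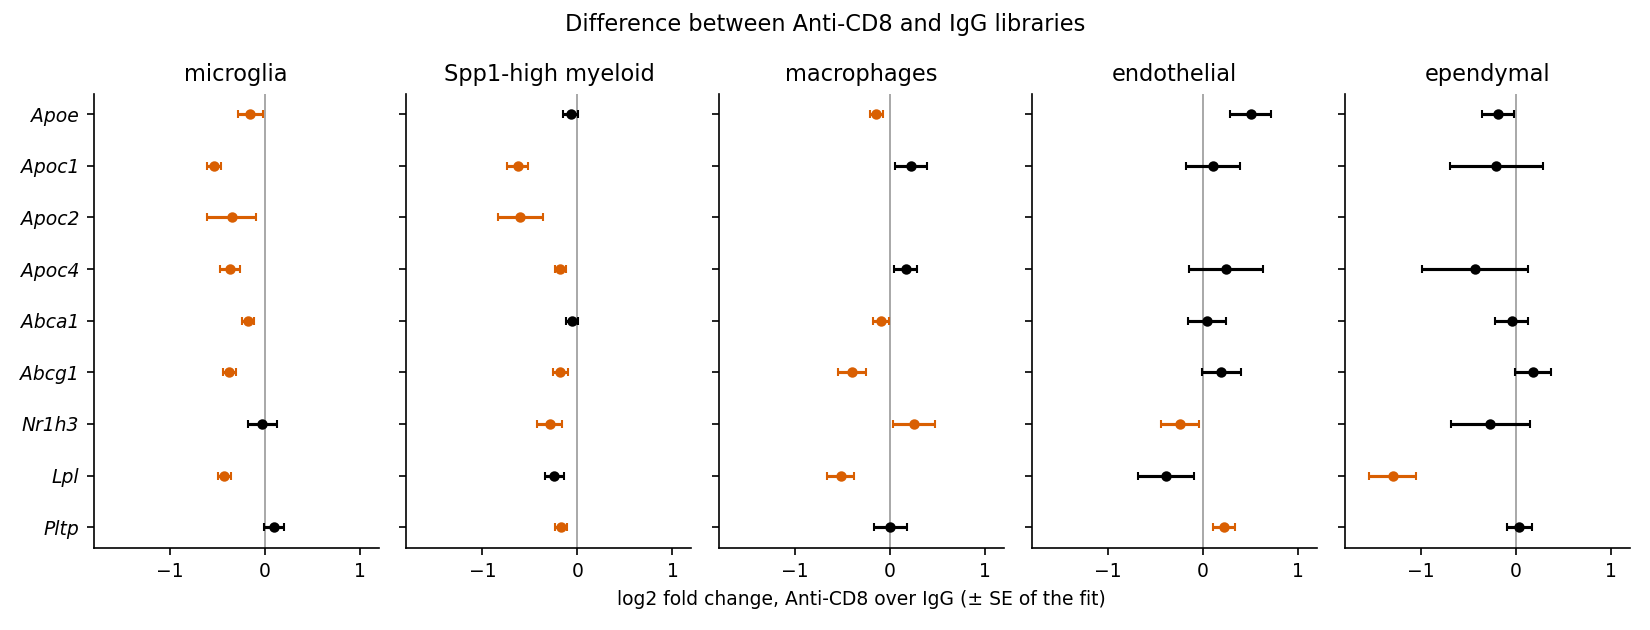
Log2 fold change of each member, Anti-CD8 over IgG, with the standard error of the edgeR fit, in 5 classes. Orange marks members whose 2 Anti-CD8 and 2 IgG libraries did not overlap and black those whose libraries did. In microglia and Spp1-high cells the orange points lie left of 0, no point passed the adjusted threshold, and Apoc2 was not tested in the 3 classes on the right.

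The myeloid clusters were then fitted separately, a step added after the class results were known. Of 112 tests of a member in a cluster, 6 were called with p adjusted within the cluster, all downwards with Anti-CD8, where 0.0754% of 165677 gene tests were called in either direction and 0.0465% downwards. With p adjusted over all 14 clusters 5 remained, where 0.0495% of gene tests were called. DESeq2 also made 6 calls, while edgeR made more in each fit without 1 library. The share of all gene tests called under these settings is not given here, so these counts have no background to be set against. The 6 edgeR calls with all libraries concerned Lpl in 3 microglial clusters, Apoc1 in 1 microglial and 1 Spp1-high cluster, and Pltp in 1 Spp1-high cluster.

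Lpl fell in cluster 1, microglia led by Tafa1, Gpr84 and Il1b, with 421 and 349 CPM with Anti-CD8 against 611 and 524 CPM with IgG, at -0.56 (SE 0.09, adjusted p 0.0205), a cluster in which 0.449% of 13579 genes were called. With p adjusted over all clusters this value was 0.061, and without IgG library 1 it was -0.44 with an adjusted p of 0.158. Lpl fell in cluster 3, with 142 and 131 CPM with Anti-CD8 against 223 and 202 CPM with IgG, at -0.64 (SE 0.07, adjusted p 0.0132), where 0.0685% of 13137 genes were called, and its adjusted p was 0.0511 without Anti-CD8 library 2. Lpl fell in cluster 8, with 410 and 410 CPM with Anti-CD8 against 903 and 614 CPM with IgG, at -0.89 (SE 0.14, adjusted p 0.02), where 0.222% of 13059 genes were called. Its call in cluster 8 was lost with DESeq2 (adjusted p 0.124) and without IgG library 1 (-0.58, adjusted p 0.15), Anti-CD8 library 1 (adjusted p 0.169) or Anti-CD8 library 2 (adjusted p 0.21). Cluster 7, where Lpl was highest, did not separate the groups, with 1496 and 1297 CPM with Anti-CD8 and 1648 and 1359 CPM with IgG.

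Apoc1 fell in cluster 5, the Spp1-high cells with Mmp12 and Fabp4, with 150 and 130 CPM with Anti-CD8 against 206 and 236 CPM with IgG, at -0.66 (SE 0.09, adjusted p 0.0126), where 0.0668% of 13466 genes were called. The call in cluster 5 held without each library in turn. Apoc1 fell in microglial cluster 8, with 74.6 and 69.7 CPM with Anti-CD8 against 110 and 121 CPM with IgG, at -0.68 (SE 0.09, adjusted p 0.0114), and at -0.70 (adjusted p 0.022) without the cell with the most Apoc1 UMIs in each library. Without any 1 of the 4 libraries its adjusted p in cluster 8 was 0.088 to 0.143. In cluster 3 Apoc1 had 109 and 138 CPM with Anti-CD8 and 163 and 248 CPM with IgG and was not called (-0.73, adjusted p 0.144). In cluster 24 its libraries lay the other way, at 39 and 46 CPM with Anti-CD8 and 29 and 21 CPM with IgG. There a single cell held 43.75% and 16% of the Apoc1 UMIs with Anti-CD8 and 24.4% and 12.9% with IgG, so these levels leaned on few cells.

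Pltp fell in cluster 24, with 56.1 and 59.9 CPM with Anti-CD8 against 140 and 160 CPM with IgG, at -1.35 (SE 0.17, adjusted p 0.0077), where 0.0231% of 8647 genes were called. This cluster held only 27 and 84 Anti-CD8 cells and 41 and 48 IgG cells. Without the cell with the most Pltp UMIs in each library the values were 50.3 and 52.8 CPM with Anti-CD8 and 122 and 132 CPM with IgG, at -1.29 (adjusted p 0.041), and the call held without each library in turn. Endothelial Pltp lay the other way, as given above, and Pltp was above 0 in 11 of the myeloid clusters. Over the 14 clusters Lpl, Abca1 and Abcg1 were below 0 in 13 each, Apoe in 12, and Apoc1 and Apoc4 in 10 each. The clusters share the 4 libraries, so these counts are not independent.

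The difference between classes in the response to Anti-CD8 was tested directly with the library as a block. No member was called between Spp1-high cells and microglia, where 0.0223% of 17917 genes were called and 832 had an unadjusted p under 0.05. Nor was one called between macrophages and microglia (0.0407% of 17203 genes called, 897 unadjusted). Between macrophages and Spp1-high cells no member was called either (0.00623% of 16058 genes called, 713 unadjusted). Apoc1 had the widest gap, 0.76 in log2 between macrophages and microglia (SE 0.17, adjusted p 0.21) and 0.86 between macrophages and Spp1-high cells (SE 0.19, adjusted p 0.43), a gap that includes the single macrophages described above. These interaction fits were made with edgeR only.

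Related genes of the pathway, in lists chosen with earlier results of these data known, gave no call in any class, and the genes named here are those of the 2 with the smallest p in each list that are reported. Of the liver X receptor's partners and targets, 8 of 11 were below 0 in microglia with a median log2 fold change of -0.093, 9 of 11 in Spp1-high cells at -0.029, and 7 of 11 in macrophages at -0.046. The desaturase gene Scd2, a target of this receptor, stood at -0.35 in microglia (SE 0.06, adjusted p 0.26), -0.09 in Spp1-high cells and -0.45 in macrophages. Srebf1, the regulator of fatty acid synthesis, stood at -0.29 in microglia, the partner receptor gene Rxrb at -0.08 in Spp1-high cells, and Mertk, which takes up dying cells, at -0.17 in macrophages. Of the sterol transporters and sterol traffic genes, 8 of 10 were below 0 in microglia at a median of -0.07, 7 of 10 in Spp1-high cells at -0.035 and 8 of 9 in macrophages at -0.082. Ch25h, which makes 25-hydroxycholesterol, was at -0.32 in microglia and -0.38 in Spp1-high cells, where the lysosomal sterol carrier gene Npc2 was at -0.11. Abca7, a transporter related to Abca1, was at -0.20 in microglia and -0.66 in macrophages, where Soat1, which esterifies cholesterol, was at -0.14.

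The other lists were split. Lipase partners and lipases were below 0 for 6 of 7 genes in microglia (median -0.057), 6 of 7 in Spp1-high cells (median -0.073) and 4 of 7 in macrophages (median -0.086). Lipa, the lysosomal acid lipase, was at -0.14 in microglia and -0.22 in macrophages, and Mgll, the monoglyceride lipase, at 0.20 in microglia. Angptl4, an inhibitor of lipoprotein lipase, was at -0.35 and Lmf1, which matures it, at -0.18 in Spp1-high cells, and the triglyceride lipase gene Pnpla2 at 0.17 in macrophages. Lipoprotein receptors were below 0 for 7 of 11 genes in microglia and 5 of 11 in both Spp1-high cells and macrophages. Lrp1, a receptor for Apoe particles, was at -0.11, -0.18 and -0.36 in microglia, Spp1-high cells and macrophages, and Scarb1, the HDL receptor, at -0.33 in microglia. Of other apolipoproteins, 1 of 5 was below 0 in microglia, with Apod at 0.52 and Clu at 0.18, and Apod was at 0.59 and Clu at 0.28 in Spp1-high cells, against -0.56 and 0.74 in macrophages.

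Over all myeloid cells the smallest p-values belonged to Scd2 (-0.24), Srebf1 (-0.21), Angptl4 (-0.33), Lipa (-0.13), Lrp1 (-0.15), Clu (0.27), Apod (0.31), Abca7 (-0.17) and Ch25h (-0.34). In endothelial cells 8 of 11 of the receptor's partners and targets lay above 0 (median 0.012), with Smpdl3a at 0.16 and Arl4c at 0.50. Of the other lists there, Ch25h was at -0.34, Cyp27a1 at 1.05, Lipe at -0.33, Mgll at -0.16, Trem2 at 0.67, Sorl1 at 1.04, Clu at -0.82 and Apod at -0.15. In ependymal cells 8 of 11 partners and targets lay below 0 (median -0.029), with Rxra at -0.15 and Srebf1 at -0.10, beside Ch25h at -0.89, Lcat at 0.48, Mgll at 0.56, Sel1l at -0.18, Lrp8 at 0.27, Sort1 at -0.26 and Clu at -0.06. In mural cells 6 of 11 lay below 0 (median -0.094), with Mertk at -0.43 and Mylip at -0.34, beside Npc2 at -0.50, Soat1 at -0.66, Mgll at 0.49, Lipa at -0.61, Trem2 at -0.54, Clu at -0.55 and Apod at -0.17. In the astrocyte and oligodendrocyte-lineage class 7 of 11 lay below 0 (median -0.264), with Scd2 at -1.26 and Srebf1 at -0.79, beside Lcat at -1.06, Abca2 at -0.60, Lipe at -0.87, Mgll at -0.52, Trem2 at 0.73, Vldlr at 0.80, Apod at -2.09 and Clu at -0.78. The median over all genes tested lay between -0.005 and 0.01 in these 8 classes. Endothelial, mural, ependymal and astrocyte and oligodendrocyte-lineage cells held myeloid markers, as given above, and the part of myeloid RNA in their values was not tested.

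The genes most like each member in level over 26 clusters, came from 15449 ranked by Pearson r of log2(mean CPM + 1). Apoe was closest to Ctsd (0.977) and Ctsb (0.974), which encode lysosomal cathepsins, and to the phagocyte gene Cd68 (0.975). Apoc1 was closest to the chemokine gene Cxcl14 (0.915), then Apoe (0.912) and Cox6a2 (0.91), and Apoc4 to Cxcl14 (0.954), Apoe (0.945) and Dpp7 (0.942). Lpl was closest to Lyzl4 and Cxcl14 (0.934 each) and Cox6a2 (0.932), so Cxcl14 stood near 3 members. Abca1 was closest to Scarb2 (0.963), Mitf (0.957) and Slc7a7 (0.952), and Abcg1 to Rnf128 (0.931), Gm15832 (0.923) and Galns (0.915). Pltp was closest to the caveolar gene Cav2 (0.957), Flvcr2 (0.923) and Pir (0.916), and Nr1h3 to Cyp20a1 (0.894), Mcam (0.892), an adhesion molecule of mural and endothelial cells, and C1ra (0.891). Apoc2 was too low to be ranked.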

How the data were processed

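Gene by barcode matrices of UMI counts, whole numbers without normalization, were deposited for 4 libraries. The submitters' processing notes name Cell Ranger 7.1.0 and the build GRCm39, and whether intronic reads were counted is not given in the sources used here. Barcodes (8117 and 8482 Anti-CD8, 6586 and 6771 IgG) were dropped under 300 genes or above 20% mitochondrial UMIs. Simulated-doublet scores removed the highest 0.8% per 1000 cells, leaving 27695 cells. Clustering used scanpy 1.11.5 (3000 variable genes, 30 components, 15 neighbours, Leiden resolution 1) without the 9 members, the related lipid lists, Cd8, receptor, sex-linked and mitochondrial genes. Classes were named from marker lists, with score limits set after seeing the data. Cluster 10, with low depth, stayed unnamed among the myeloid cells. Outside them clusters 16, 25, 26, 27 and 32 stayed unnamed and are in no class. Cluster 16 had a mean log2 fold of 5.24 for mural and 3.59 for endothelial markers, too close for a name.

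UMIs were summed per library and class, scaled by TMM, filtered with filterByExpr and tested in edgeR 4.0.16 (R 4.3.3), with Benjamini-Hochberg adjustment over all genes and a threshold of 0.05. DESeq2 1.42.0 was an alternative. On simulated counts with microglial means over 18050 genes, the fit called 66 of 100 genes changed 2-fold and 43 of 100 changed 1.5-fold. It also called 2 unchanged genes. With macrophage means over 12058 genes it called 66, 36 and 3. The counts were drawn once, with each gene's spread taken from the trend over genes and no library made to deviate. These figures need not hold for the real libraries. Members, lists and named genes were chosen with earlier results of these data known. All members were named, with the 2 genes of smallest p in each related list where none was called and the 3 genes of highest r to each member. A gene of the receptor list that this rule would name is not reported here. The groups share replicate numbers, but same-numbered libraries deviated together with r of only 0.003 to 0.34 over classes, and no label says that numbers mark a shared batch, so the numbers were not used as pairs. The design text calls the libraries biological replicates, without saying how many mice each holds, so p-values cover only how these libraries vary, which may be technical in part. Gene overlaps came from GENCODE vM21. Shares count cells with a UMI, and counting error in them is not shown. Alternatives are given with the closing results.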

Additional observations from a re-analysis of the deposited data

How the results depend on the processing

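Members called by edgeR numbered 0 in each class. Without a filter on low counts there were 4 in microglia, 2 in Spp1-high cells, 3 in macrophages, 3 over all myeloid cells, 1 in endothelial, 1 in ependymal and 1 in astrocyte and oligodendrocyte-lineage cells. DESeq2 called 3 in microglia and 2 over all myeloid cells. With the replicate block there was 1 call each in microglia, Spp1-high, ependymal and astrocyte and oligodendrocyte-lineage cells; the numbers are no pairing. Leaving out 1 library gave 0 to 3 in microglia, 0 to 1 in Spp1-high cells, 0 to 3 in macrophages, 0 to 2 over all myeloid cells and 0 to 1 in ependymal cells. Of the interactions, macrophages against microglia gave 0 to 2 and macrophages against Spp1-high cells 0 to 3. Over the myeloid clusters the 6 calls became 25 without the filter, 10 with the replicate block and 8 to 15 without 1 library.

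Genes called in microglia numbered 0, against 96 with DESeq2, 669 without the filter, 35 with the replicate block, 4 without the interferon-high cluster and 0 to 172 without 1 library, with 172 without IgG library 2. In Spp1-high cells the count was 1, against 0 without composition scaling, 25 with DESeq2, 284 without the filter, 80 with the block, 3 without doublet removal, 0 with the stricter cell filter, 0 at Leiden resolution 2 and 1 to 37 without 1 library. In macrophages it was 2, against 1 without scaling, 89 without the filter, 1 with the block and 33 to 90 without 1 library. Over all myeloid cells it was 0, against 91 with DESeq2, 213 without the filter, 3 with the block and 0 to 108 without 1 library. In endothelial cells it was 0, against 5 with DESeq2, 151 without the filter, 2 with the block, 1 without doublet removal and 0 to 25 without 1 library. In mural cells it was 1, against 2 with DESeq2, 0 without the filter, 3 with the block, 0 with the stricter filter, 0 at resolution 2 and 0 to 2 without 1 library. In ependymal cells it was 1, against 9 with DESeq2, 135 without the filter, 57 with the block, 0 without doublet removal, 2 with the stricter filter and 0 to 169 without 1 library. In astrocyte and oligodendrocyte-lineage cells it was 0, against 10 with DESeq2, 118 without the filter, 26 with the block and 0 to 0 without 1 library.

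Single log2 fold changes turned sign in 59 of the alternatives, none of them called. Nr1h3 in microglia was 0.033 without scaling and 0.032 without the interferon-high cluster. Pltp in macrophages, 0.003 in the report's fit, was -0.017 with DESeq2, -0.010 with the block, -0.12 with the stricter filter and -0.028 at resolution 2, and Apoc1 there was -0.38 with the stricter filter and -0.64 without its top cells. Pltp over all myeloid cells was 0.0060 without scaling. In endothelial cells without doublet removal Apoe was -0.18, Apoc1 -1.93, Apoc4 -1.27, Abca1 -0.0063 and Abcg1 -0.14, and Apoc4 was -0.0064 with the stricter filter and -0.048 at resolution 2. In mural cells without doublet removal Apoc4 was 1.12, Abca1 -0.045 and Abcg1 0.61, Abcg1 was 0.49 with the stricter filter and 0.89 at resolution 2, and Apoe was 0.52 at resolution 2. In astrocyte and oligodendrocyte-lineage cells without doublet removal Apoe was -0.016, Apoc1 0.57 and Pltp 0.13, and Abcg1 was 0.39 without its top cells.

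Without 1 library the ranges that crossed 0 were -0.17 to 0.14 for Nr1h3 and -0.046 to 0.23 for Pltp in microglia, -0.0098 to 0.43 for Apoc1, -0.021 to 0.34 for Apoc4 and -0.28 to 0.27 for Pltp in macrophages, and -0.19 to 0.072 for Pltp over all myeloid cells. In endothelial cells they were -0.047 to 0.28 for Apoc1, -0.31 to 0.68 for Apoc4, -0.24 to 0.41 for Abca1, -0.025 to 0.47 for Abcg1 and -0.78 to 0.18 for Lpl. In mural cells they were -0.69 to 0.73 for Abca1, -2.02 to 0.13 for Abcg1, -0.26 to 0.21 for Nr1h3 and -1.12 to 1.03 for Pltp. In ependymal cells they were -1.09 to 0.77 for Apoc1, -1.69 to 0.42 for Apoc4, -0.30 to 0.28 for Abca1, -0.040 to 0.47 for Abcg1, -0.51 to 0.059 for Nr1h3 and -0.011 to 0.10 for Pltp. In astrocyte and oligodendrocyte-lineage cells they were -0.052 to 0.46 for Apoe and -1.99 to 0.93 for Pltp. The direction of Apoc1, Lpl, Abcg1, Apoe, Apoc2, Apoc4 and Abca1 in microglia and of all members in Spp1-high cells held in each alternative run. The causes of these changes were not tested, and the stricter filter and resolution 2 left the astrocyte and oligodendrocyte-lineage class too few cells to be fitted. Depth limits Apoc2 and Nr1h3 most. Each p rests on 2 libraries a group, or on 2 against 1 in the fits without 1 library, where the lone library is assumed to vary like the others.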
